A study of Mus musculus with 30 samples.

Results

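Dok proteins, named for being downstream of tyrosine kinases, are adaptors that are phosphorylated by receptor or Src-family kinases and pass the signal on. The 6 genes of the mouse family with the symbols Dok1, Dok2, Dok3, Dok4, Dok5 and Dok6 were taken by symbol from a table of 24883 genes measured in the dorsal hippocampus, and each was present on a single row. The family was chosen by the measured FPKM of a pair of its genes. Dok6 was about 2 times as high after subthreshold training with CREST labelled phospho-mimetic as in home-cage mice. Dok3 was higher there and after threshold training. The differences of VEH-T10 and Y397D-T3 from VEH-HC are therefore given below as descriptions, with no test.

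RNA was sequenced from 30 male C57BL/6J mice of wild-type genotype, 2 to 4 months old, with 1 library per mouse and 6 mice in each of 5 conditions. All mice received an infusion of the transfection reagent jetPEI into the dorsal hippocampus, 3 days before training in the trained groups. VEH-HC mice received vehicle (reagent without DNA) and were only handled in the home cage. VEH-T10 and VEH-T3 mice received vehicle and were trained for 10 min (threshold) or 3 min (subthreshold) in object location memory, a task in which a mouse explores objects whose place is later changed. Y397F-T10 mice received a plasmid for CREST with tyrosine 397 replaced by phenylalanine, labelled phospho-null in the sample titles, and were trained for 10 min. Y397D-T3 mice received the aspartate form, labelled phospho-mimetic, and were trained for 3 min. The authors could not detect phosphorylation of this tyrosine and name both forms only point mutants. CREST, encoded by Ss18l1, is a subunit of the neuronal BAF chromatin remodelling complex. Tissue was collected 1 h after training. By the paper's methods, mice in this task were also habituated to the chamber on days before training, which VEH-HC mice were not. In differences from VEH-HC, habituation and the training session therefore cannot be told apart. The plasmid was driven by a short CaMK2 promoter, a type used to reach excitatory neurons. The cell types that expressed it are not identified in the sources used here. The RNA came from a whole dissected hemisphere of dorsal hippocampus. Each mutant was paired with a single training length, and the vehicle held no DNA, so the effect of the mutant protein and of carrying a plasmid cannot be told apart.

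The family falls into 2 branches. All members carry an amino-terminal PH domain, which binds membrane lipids, a PTB domain, which docks on phosphorylated receptors, and a tail with tyrosines. Dok1, Dok2 and Dok3 are known mainly from blood cells, where they restrain signalling, Dok1 and Dok2 by recruiting the Ras inactivator p120 RasGAP (Rasa1) and Dok3 with the lipid phosphatase SHIP1 (Inpp5d) and Grb2. Dok4, Dok5 and Dok6 have shorter tails and are known from neurons, where they have been linked to neurite outgrowth downstream of Ret, the receptor for GDNF-family ligands, and of the neurotrophin receptors TrkB (Ntrk2) and TrkC (Ntrk3).

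The branches were visible in the coding sequences. In the GENCODE M21 annotation of GRCm38 (the build also named mm10) the longest coding sequence of Dok1, Dok2 and Dok3 was 1446, 1236 and 1332 bases, against 975, 918 and 993 bases for Dok4, Dok5 and Dok6. Over aligned bases, identity was 67.8% for Dok4 with Dok5, 67.7% for Dok4 with Dok6 and 70.5% for Dok5 with Dok6, while the remaining pairs lay between 59.5% and 65.2%. A stretch of 60 bases, coding bases 331 to 390 in either gene, is shown for the closest printed pair because it bears on whether reads of 1 member could be counted for another. It lies in exon 5 of 9 of Dok4 (chr8:94866767-94866826, minus strand) and in exon 4 of 8 of Dok5 (chr2:170830110-170830169, plus strand), and capitals mark the 45 bases that the genes share.
Dok4: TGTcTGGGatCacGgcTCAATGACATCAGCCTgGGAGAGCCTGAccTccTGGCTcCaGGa
Dok5: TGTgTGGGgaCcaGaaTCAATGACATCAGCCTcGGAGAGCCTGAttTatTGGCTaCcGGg
The unbroken run of 16 capitals in the middle was the longest that their transcripts shared. Over all 15 pairs of members the longest shared run was between 11 and 17 bases, far under the 150-base reads.

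The values are FPKM, the fragments of a gene divided by the length of its transcript and scaled to the mapped fragments of the library, so levels of different genes can be set side by side. Dok6 was the most abundant member, with a mean of 18.3 FPKM over the 30 libraries, higher than 68.0% of the 13184 genes with a mean of at least 1 FPKM. Dok5 and Dok4 followed at 9.15 and 8.59 FPKM, Dok3 at 4.66, Dok1 at 2.27 and Dok2 at 0.243. Dok5 exceeded Dok4 in only 18 of 30 libraries, so these neighbours did not differ beyond their spread. Every other neighbouring pair kept its order in 29 or 30 of the 30 libraries. The neuronal branch thus stood above the blood-cell branch at the level of measured mRNA. For Dok4 this is less certain, since its value may include reads of Polr2c on the opposite strand (given below). Dok2 did not reach 1 FPKM and was fitted separately without the filter, leaving 5 of the 6 members in the main test.

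**Figure D1:**
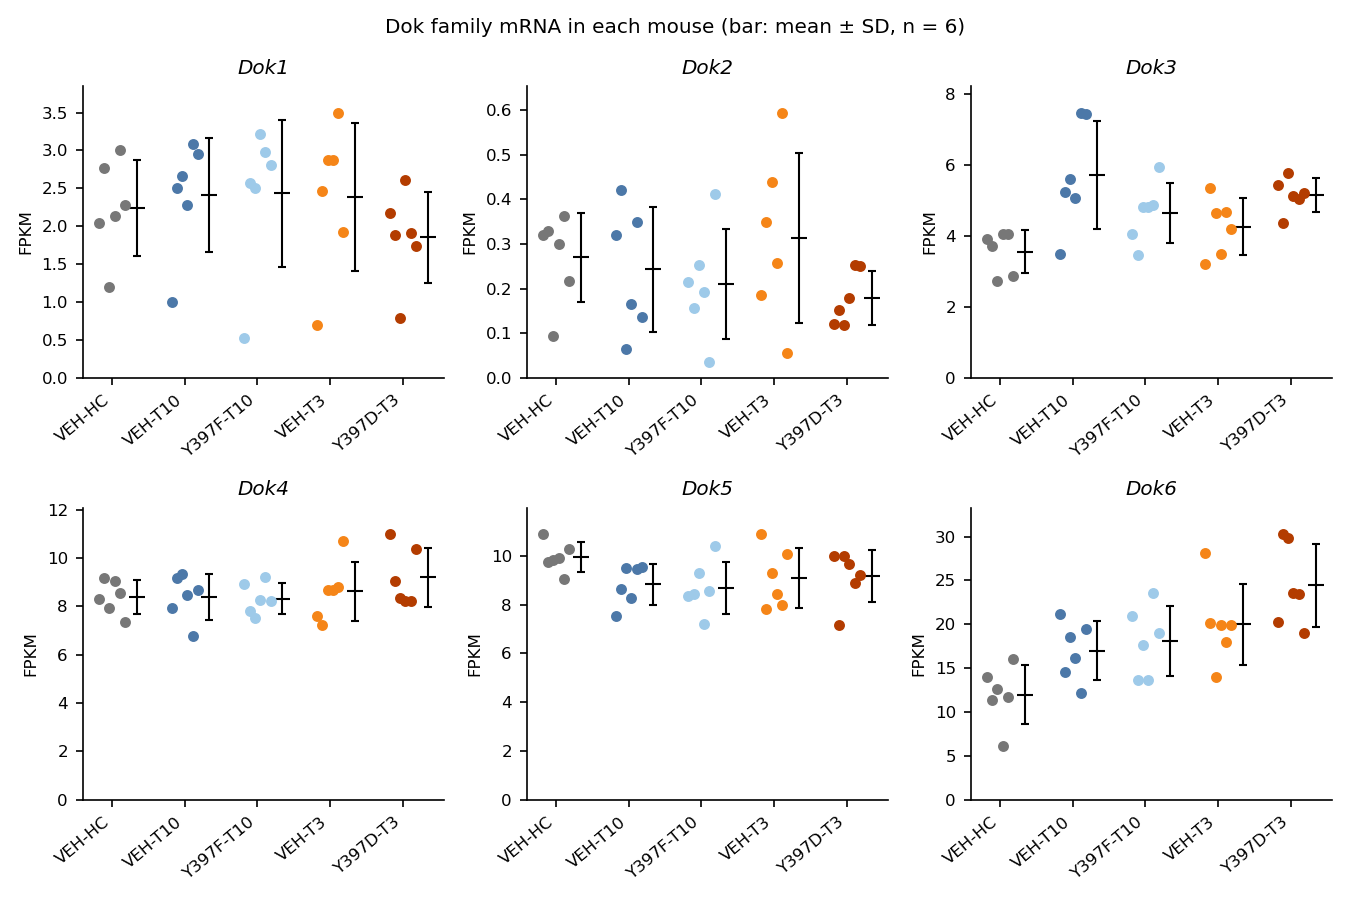
FPKM of each Dok gene (vertical axis, from 0) in each mouse (points) of the 5 conditions (horizontal axis), with the mean and SD of 6 mice beside them as a bar. Dok6 lies between 6.12 and 16.0 in VEH-HC and between 19.0 and 30.3 in Y397D-T3. For Dok1, 1 mouse lies well below the others in several groups.

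Before the comparisons, the libraries were checked. Depth relative to the median library ranged from 0.812 to 1.24. Ss18l1, the gene on the plasmids, was at 12.6 ± 0.92 FPKM in Y397F-T10 and 13.5 ± 0.471 in Y397D-T3 (SD, n = 6), against 12 ± 1.18 in VEH-T10 and 12.9 ± 1.08 in VEH-T3. Neither plasmid group differed from its vehicle group in limma (adjusted p = 1.0 and 0.786), so the plasmid was not detectable at the level of this gene. In the paper, antibody staining for a tag on both mutant proteins gave signal in the dorsal hippocampus after infusion, which the mRNA level does not measure. All 5 markers of CA1 pyramidal neurons were present, at a summed 194 to 206 FPKM in VEH-HC. Markers of choroid plexus, which lies beside the hippocampus, and of thalamus varied with the conditions and are given below beside Dok6. Microglia markers were low in replicate 1 of VEH-T10, Y397F-T10 and VEH-T3, and are given beside Dok1. In bulk tissue, fewer cells of a type and less RNA per cell cannot be told apart.

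The comparisons were made with limma on log2(FPKM + 1), a scale that understates changes of low genes, and a gene was called at an adjusted p under 0.05 (Benjamini-Hochberg over 13184 genes). Differences below are on this scale.

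Dok6, an adaptor of Ret and TrkC, is transcribed from the minus strand of chr18:89292424-89769528. In VEH-HC mice its lowest, median and highest levels were 6.12, 12.1 and 16.0 FPKM. They were 14.0, 19.9 and 28.1 FPKM in VEH-T3 and 13.6, 18.3 and 23.6 in Y397F-T10. All 6 mice of both trained groups lay above the home-cage median, and both ranges overlapped the home-cage range. Dok6 rose in VEH-T3 against VEH-HC, from 12 ± 3.32 to 20.0 ± 4.61 FPKM (SD, n = 6), a log2 difference of 0.72 ± 0.179 (SE, limma adjusted p = 0.0223). The home-cage values of Dok6 also entered the choice of the family, so this test is not independent of it. Dok6 was the only one of the 5 members tested that was called there, where 5.17% of all genes were called. The call was lost without VEH-HC replicate 4, the mouse with the lowest Dok6 (0.56, adjusted p = 0.0652), and without VEH-T3 replicate 2 (0.71, adjusted p = 0.0582). It was also lost when the spread was estimated from the 12 libraries compared (adjusted p = 0.0971), where 0 of all genes were called. Removing a trend with transcript length and GC content, an alternative chosen after seeing the data, also lost the call (0.58, adjusted p = 0.05). Over all alternatives the p ranged from 7.78e-06, by the Cyber-T-style test described next, to 0.0971 in limma.

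In Y397F-T10 the Dok6 difference from VEH-HC was 0.58 ± 0.179 with a 95% interval of 0.21 to 0.95, and it did not pass (limma adjusted p = 0.099). A Cyber-T-style test fitted across all genes, which borrows the spread of genes of similar level, called it. Its p of 0.000411 was corrected over pairs of conditions but not over genes, and over all other alternatives the limma adjusted p reached 0.244. The remaining comparisons with VEH-HC are described without a test, because VEH-T10 entered the choice through Dok3 and Y397D-T3 through Dok3 and Dok6. In VEH-T10, Dok6 had a lowest, median and highest level of 12.2, 17.3 and 21.2 FPKM, and a difference of 0.50 from VEH-HC. In Y397D-T3 these levels were 19.0, 23.6 and 30.3 FPKM, all above the highest home-cage mouse, and the difference was 1.0, a ratio of means of 2.04. The 4 comparisons share the VEH-HC mice.

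Between trained groups, Dok6 did not pass a test. The difference of Y397F-T10 from VEH-T10 was 0.08 (95% interval -0.29 to 0.44), that of VEH-T10 from VEH-T3 was -0.22 (-0.59 to 0.15) and that of Y397F-T10 from VEH-T3 was -0.14 (-0.51 to 0.23). The last of these used no mouse from the choice. Y397D-T3 lay 0.28 above VEH-T3, given without a test, with 5 of 6 mice above the VEH-T3 median. The trained groups were therefore ordered Y397D-T3, VEH-T3, Y397F-T10 and VEH-T10 by mean Dok6, and the ranges of all neighbours in that order overlapped.

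Markers of other tissues and of hippocampal cell types also varied between the groups compared for Dok6. The 6 choroid plexus markers summed to 918 to 5610 FPKM in VEH-HC (median 3150). The median sum was 1960 after VEH-T3, where the highest library reached 12800, 125 after Y397D-T3, 102 after VEH-T10 and 55.9 after Y397F-T10. The 5 thalamus markers summed to 22.9 to 33.5 FPKM in VEH-HC, 15.6 to 48.7 in VEH-T3, 13.9 to 29.4 in Y397D-T3, 12.3 to 30.5 in VEH-T10 and 9.4 to 28.3 in Y397F-T10. None of these markers was called in VEH-T3, while 1 thalamus marker was lower in Y397F-T10, 1 in VEH-T10 and 2 in Y397D-T3, and no list had a marker at 0 throughout. The 5 markers of deep cortical layers, of which 3 reached 1 FPKM, summed to 19.2 to 24.1 FPKM in VEH-HC and to medians of 16.7 in VEH-T3, 16.5 in Y397D-T3, 17.8 in Y397F-T10 and 16.8 in VEH-T10, and 1 of them was called lower in VEH-T10 and 1 in Y397D-T3. Of 4 endothelium markers, 1 was called higher in VEH-T3. Dentate granule cell markers summed to medians of 123 FPKM in VEH-HC, 152 in VEH-T3, 158 in Y397D-T3, 149 in Y397F-T10 and 125 in VEH-T10. In that order, medians were 149, 166, 186, 175 and 183 for CA2 and CA3 and 737, 586, 744, 612 and 642 for interneuron markers. No marker of these lists was called, while 1 of 5 CA1 markers was called higher in Y397D-T3 than in VEH-HC. Across the 30 libraries Dok6 was negatively correlated with the thalamus marker mean, with a Pearson r of -0.564 and a Spearman rho of -0.714. Within conditions r was 0.234 in VEH-HC, -0.672 in VEH-T3, -0.982 in Y397D-T3, -0.631 in Y397F-T10 and -0.686 in VEH-T10, and without the 2 farthest libraries the pooled r was -0.624. Dok6 was also negatively correlated with the median of all genes in a library (r = -0.523, rho = -0.56). The Dok6 correlations are given without a test, since the pooled libraries include values that chose the family. Within conditions that r was 0.518 in VEH-HC, -0.703 in VEH-T3, -0.793 in Y397D-T3, -0.881 in Y397F-T10 and -0.667 in VEH-T10. Without the 2 farthest libraries it was -0.372. The part of these markers and of the library median in the Dok6 differences was not tested.

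Dok6 also differed from the rest of the family in its gene structure. Its transcript was 10099 bases long with 37.3% GC, against 1768 to 2590 bases for the longest transcripts of the others and 52.5% to 59.1% GC. The gene spanned 477105 bp, against 147963 bp for Dok5 and 2538 bp for Dok1. The genes whose levels followed Dok6 most closely over the 30 libraries on the log2 scale were Soga3 (r = 0.91), Gabrb1 (r = 0.877), which encodes a GABA-A receptor subunit, and Slc24a2 (r = 0.868), which encodes a sodium, potassium and calcium exchanger. With the condition means removed, r was 0.823, 0.801 and 0.716. These are descriptions of shared variation between libraries that differ in tissue content.

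**Figure D2:**
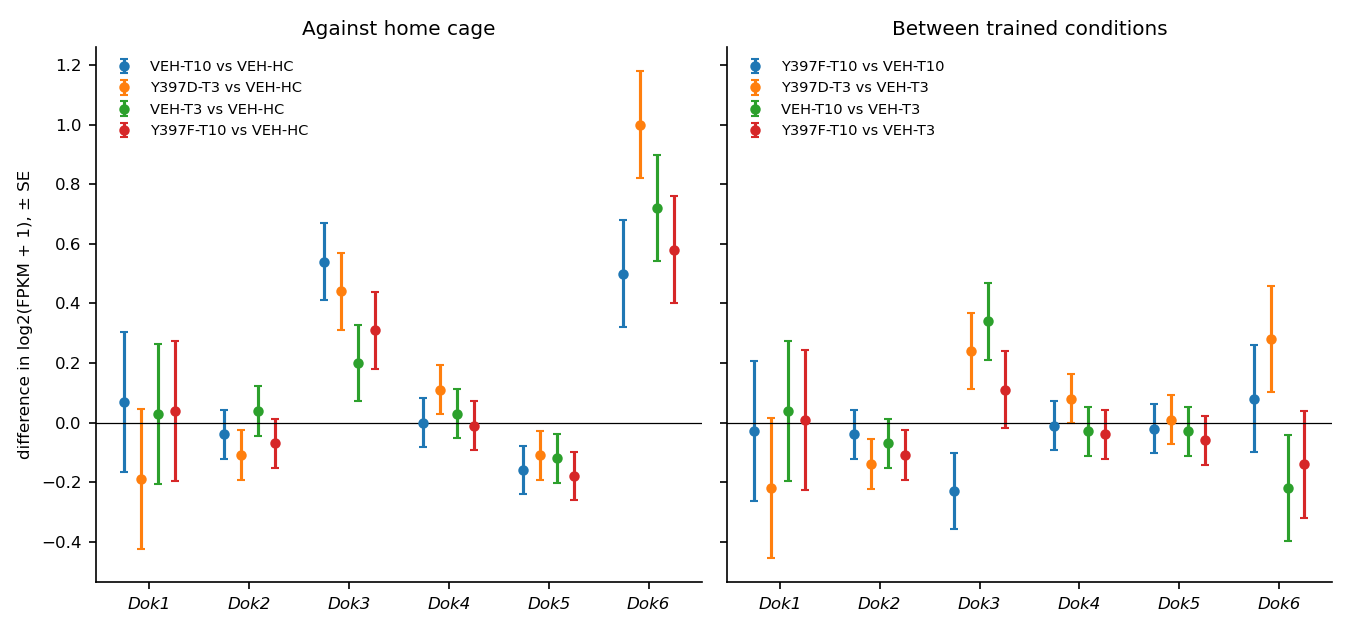
Difference in log2(FPKM + 1) of each Dok gene (horizontal axis) in the 4 comparisons with VEH-HC (left) and in 4 comparisons between trained conditions (right), as points with SE. Dok6 is higher than home cage by 0.50 to 1.0 in all trained conditions and Dok5 lower by 0.11 to 0.18, of which only Dok6 in VEH-T3 was both tested and called.

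Dok5 and Dok4, the other members of the neuronal branch, varied little. Dok5 (chr2:170731807-170879769, plus strand), an adaptor of TrkB and TrkC, had a lowest, median and highest level of 9.05, 9.87 and 10.9 FPKM in VEH-HC. In the trained groups the medians lay between 8.49 and 9.45, and all ranges overlapped that of VEH-HC. The Dok5 difference from VEH-HC was -0.12 in VEH-T3 (limma adjusted p = 0.398) and -0.18 in Y397F-T10 (95% interval -0.35 to -0.01, adjusted p = 0.25), neither of which passed. In the groups used for the choice it was -0.16 in VEH-T10 and -0.11 in Y397D-T3. Dok4 (chr8:94863828-94876330, minus strand), an adaptor of Ret and the insulin receptor, had levels from 6.78 to 11.0 FPKM over all mice. Its differences from VEH-HC were 0.03 in VEH-T3 and -0.01 in Y397F-T10, with intervals of -0.14 to 0.20 and -0.18 to 0.16. Dok4 shares 953 of its 3054 exon bases with Polr2c on the opposite strand, and the strand setting of the counting is not given in the sources used here, so reads of these genes may be mixed. The closest patterns were those of Calm2, Rnf25 and Ola1 for Dok4 (r = 0.755, 0.747 and 0.736) and of Zc3hc1, Rcan2 and Asb13 for Dok5 (r = 0.656, 0.648 and 0.648).

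Dok3 (chr13:55523231-55529296, minus strand), the SHIP1-binding adaptor of the blood-cell branch, was chosen for its values in VEH-T10 and Y397D-T3. Its lowest, median and highest levels were 2.73, 3.81 and 4.06 FPKM in VEH-HC. They were 4.36, 5.17 and 5.78 in Y397D-T3 and 3.5, 5.41 and 7.47 in VEH-T10. All Y397D-T3 mice lay above all VEH-HC mice, and VEH-T10 overlapped VEH-HC through a single mouse, replicate 1. The differences from VEH-HC, given without a test, were 0.54 in VEH-T10 and 0.44 in Y397D-T3. Of all genes, 0.819% were past the threshold in VEH-T10 and 7.07% in Y397D-T3. The members past it there, Dok3 in both and Dok6 in Y397D-T3, are the values the family was chosen on, so nothing is read from their number.

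The groups that played no part in choosing Dok3 lay between. The home-cage values of Dok3 entered the choice, so the tests against VEH-HC below are not independent of it. Its lowest, median and highest levels were 3.21, 4.4 and 5.36 FPKM in VEH-T3 and 3.45, 4.81 and 5.93 in Y397F-T10, and both overlapped VEH-HC. The differences from VEH-HC were 0.20 ± 0.129 in VEH-T3 (SE, limma adjusted p = 0.378) and 0.31 ± 0.129 in Y397F-T10 (adjusted p = 0.216), and neither passed. Y397F-T10 and VEH-T3 differed by 0.11 (95% interval -0.16 to 0.37). The genes most like Dok3 were Golm1, Hnrnpm and Cyb5r4 (r = 0.774, 0.759 and 0.757).

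Dok1 (chr6:83030934-83033471, minus strand), the RasGAP-recruiting adaptor, did not pass in any tested comparison. Its means were 2.24 ± 0.63 FPKM in VEH-HC, 2.39 ± 0.976 in VEH-T3, 1.85 ± 0.607 in Y397D-T3, 2.42 ± 0.754 in VEH-T10 and 2.44 ± 0.97 in Y397F-T10 (SD, n = 6). The spread within groups was larger than any difference between them, and each group, home cage included, held a low mouse. The lowest values were 1.2 in VEH-HC, 0.703 in VEH-T3, 0.786 in Y397D-T3, 0.53 in Y397F-T10 and 0.999 in VEH-T10. The difference of VEH-T3 from VEH-HC was 0.03 (95% interval -0.46 to 0.51) and that of Y397F-T10 was 0.04 (-0.44 to 0.52). Dok2 (chr14:70766036-70778495, plus strand), its close relative in blood cells, ranged from 0.0363 to 0.594 FPKM over the 30 libraries. Its differences from VEH-HC, fitted without the filter, were 0.04 in VEH-T3 and -0.07 in Y397F-T10 (limma adjusted p = 0.882 and 0.763). The genes most like Dok2 were Rnf135, Mcm2 and Tubb6 (r = 0.724, 0.685 and 0.653).

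The level of Dok1 followed the microglia markers of the sample. The mean log2 level of 15 microglia markers, among them Aif1, Cx3cr1 and P2ry12, correlated with Dok1 over the 30 libraries (Pearson r = 0.844, permutation p = 1e-05, adjusted p = 0.00018; Spearman rho = 0.752, permutation p = 2e-05, adjusted p = 0.00027, over 18 relations). The first of these p-values is the smallest that 100000 permutations can give. Within conditions r was 0.866 in VEH-HC, 0.87 in VEH-T3, 0.681 in Y397D-T3, 0.915 in Y397F-T10 and 0.967 in VEH-T10, and it was 0.779 without the 2 farthest libraries. Dok1 was also positively correlated with the median of all genes in a library (r = 0.678, permutation adjusted p = 0.00054, rho = 0.611) and with the thalamus marker mean (r = 0.624, permutation adjusted p = 0.00186, rho = 0.379), and r was positive within every condition for both. Without the 2 farthest libraries these were 0.639 and 0.39, so the relation was not shown to be particular to microglia. The mice lowest in Dok1 in VEH-T10, Y397F-T10 and VEH-T3 were the 3 libraries lowest in microglia markers. The genes most like Dok1 were Ang (r = 0.896), Cotl1 (r = 0.893) and Ctsz (r = 0.889), of which Ctsz encodes a lysosomal cathepsin.

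Dok3 and Dok6 varied with the same markers in opposite directions. Dok3 had a Pearson r of 0.59 and a Spearman rho of 0.525 with the microglia mean, and r was 0.875 in VEH-HC, 0.849 in VEH-T3, -0.022 in Y397D-T3, 0.924 in VEH-T10 and 0.448 in Y397F-T10. Without the 2 farthest libraries it was 0.514. Dok6 had an r of -0.468 and a rho of -0.491, with r negative in all 5 conditions, from -0.801 in VEH-T3 to -0.385 in VEH-HC, and -0.386 without the 2 farthest libraries. The summed microglia markers ranged from 520 to 1140 FPKM in VEH-HC, 346 to 1530 in VEH-T3, 555 to 1040 in Y397D-T3, 415 to 1940 in VEH-T10 and 428 to 1290 in Y397F-T10. None of the 15 markers was called in any comparison, and none was at 0. Without the 3 libraries lowest in these markers, left out after seeing the data, the Dok6 difference of VEH-T3 from VEH-HC was 0.62 (limma adjusted p = 0.0232). The part of microglia in the Dok3 values was not tested.

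**Figure D3:**
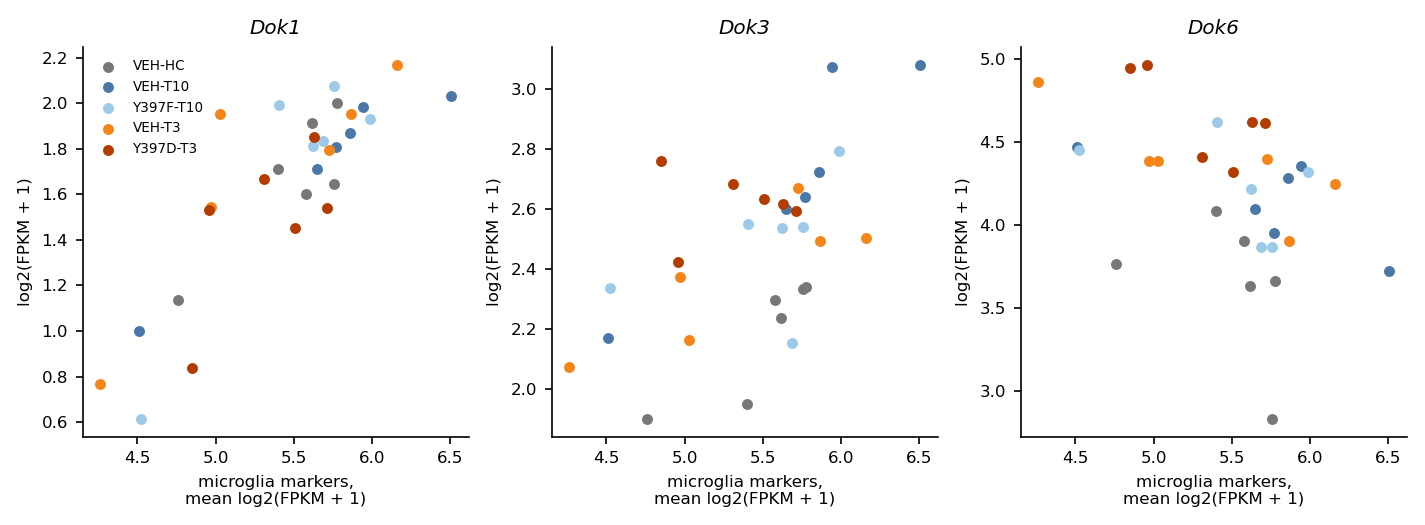
Level of Dok1, Dok3 and Dok6 in each library, as log2(FPKM + 1) on the vertical axis, against the mean log2(FPKM + 1) of 15 microglia markers on the horizontal axis, coloured by condition. Dok1 climbs with the markers (r = 0.844), Dok3 less closely (r = 0.59), and Dok6 declines (r = -0.468).

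No member that could be tested was called between trained conditions. Dok3 was left out where VEH-T10 or Y397D-T3 took part, and Dok6 where Y397D-T3 did, since those values chose the family. By limma, 0 of the 4 remaining members passed in Y397F-T10 against VEH-T10, where 0.0% of all genes were called, 0 of 3 in Y397D-T3 against VEH-T3 (0.00758% of genes), 0 of 4 in VEH-T10 against VEH-T3 (0.0455%) and 0 of 5 in Y397F-T10 against VEH-T3 (0.0%). None of these had an unadjusted p under 0.05, which gives a count of 0 in each, and the Cyber-T-style test also called 0. In Y397F-T10 against VEH-HC, where 1.13% of genes were called, 0 of 5 members passed in limma. There, 3 members had an unadjusted limma p under 0.05 (Dok3, Dok5 and Dok6), as did 2232 of all 13184 genes. The Cyber-T-style test passed 1 member, Dok6, in this comparison, and 424 of all genes. The home-cage values of Dok3 and Dok6 entered the choice of the family, so these member counts are not independent of it. Over all genes in the 4 comparisons between trained conditions, 498, 1037, 1075 and 360 had an unadjusted limma p under 0.05, in the order given. The Cyber-T-style test passed 26, 79, 82 and 38 genes in these.

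The receptors and kinases around the Dok proteins were examined through a list of 57 genes, of which 51 reached 1 FPKM. Ret was at 0.52 ± 0.2 FPKM (SD, n = 30) and its ligand gene Gdnf at 0.0491 ± 0.035, while the neurotrophin receptors Ntrk2 and Ntrk3 were at 75.7 ± 5.67 and 23.7 ± 2.38 and the TrkC ligand gene Ntf3 at 5.48 ± 1.38. Of the receptors that Dok6 serves, TrkC mRNA was thus the more abundant here. In VEH-T3 against VEH-HC, 2 list genes were higher and 2 lower, which is 7.84% of the 51 beside 5.17% of all genes. The median difference of the 51 was 0.01, against -0.04 for all genes. In Y397F-T10 against VEH-HC, 1 was lower and none higher (1.96% beside 1.13% of all genes), with medians of 0.03 and -0.04. In the 4 comparisons between trained conditions 0 list genes passed in limma, 1, 7, 6 and 1 had an unadjusted p under 0.05 in the order given above, and the Cyber-T-style test passed 0. In the comparisons that chose the members, given without a test, 2 list genes were past the threshold in VEH-T10, both lower (3.92% beside 0.819% of all genes), and in Y397D-T3 5 were higher and 3 lower (15.7% beside 7.07%). The receptors among them, named after their values were seen, went in different directions. Ntrk3 was at 26.5 ± 1.03 FPKM in Y397D-T3 and 21.7 ± 1.42 in VEH-HC (SD, n = 6), while Ntrk2 was at 70.7 ± 2.81 and 81.0 ± 4.72 and Gfra1 at 11.7 ± 0.826 and 14.8 ± 1.52.

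Abl2, an Abl-family kinase, and Braf, a kinase that relays Ras to the MAPK cascade, rose in VEH-T3. Abl2 went from 8.49 ± 0.905 to 10.3 ± 0.697 FPKM (SD, n = 6), a log2 difference of 0.26 ± 0.0622 (SE, limma adjusted p = 0.0195). Braf went from 12 ± 0.707 to 13.9 ± 0.737 FPKM, a difference of 0.20 ± 0.0455 (adjusted p = 0.0149). All 6 VEH-T3 mice lay above the home-cage median for both genes. Both calls were lost when only the libraries compared were fitted (adjusted p = 0.0966 for Abl2 and 0.083 for Braf, limma), where 0 of all genes were called. They were also lost when the length and GC trend was removed (0.0786 and 0.355). Abl2 also lost its call without VEH-HC replicate 4 (0.0564) or VEH-T3 replicate 2 (0.0646), and Braf in the Cyber-T-style test.

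Gfra1, the co-receptor that presents GDNF to Ret, and Mapk3, which encodes ERK1, fell in VEH-T3. Gfra1 went from 14.8 ± 1.52 to 11.4 ± 1.54 FPKM (SD, n = 6), a difference of -0.36 ± 0.0837 (SE, limma adjusted p = 0.0176), and Mapk3 from 107 ± 8.93 to 89.4 ± 6.42 FPKM, a difference of -0.26 ± 0.0591 (adjusted p = 0.0155). Mapk3 also fell in Y397F-T10, to 88.1 ± 6.04 FPKM (-0.28 ± 0.0591, adjusted p = 0.03). All 6 mice lay below the home-cage median in each of these. The VEH-T3 calls of both genes were lost with only the libraries compared (limma adjusted p = 0.0868 for Gfra1 and 0.083 for Mapk3), where 0 of all genes were called. They were also lost with the length and GC trend removed (0.0586 and 0.244). Gfra1 also lost its call when libraries were centred on their median (0.0542), and Mapk3 without VEH-HC replicate 4 (0.0514). In Y397F-T10 the Mapk3 call held in only 6 of 12 fits without 1 library, being lost without VEH-HC replicate 2, 4 or 5 or Y397F-T10 replicate 3, 5 or 6, and in 7 of 9 other alternatives, being lost with only the libraries compared (0.072) and with the length and GC trend removed (0.193). The same tissue marker values given beside Dok6 apply to these comparisons, and their part was not tested.

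**Figure D4:**
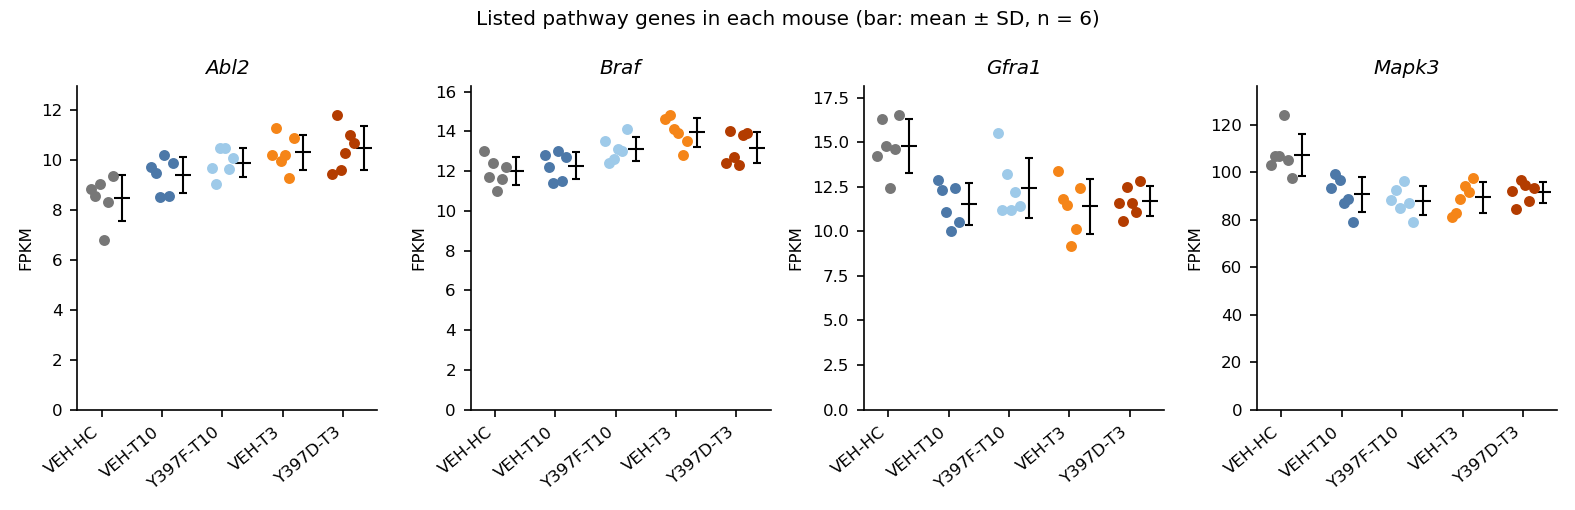
FPKM (vertical axis, from 0) of the 4 listed pathway genes that passed in a tested comparison, in each mouse (points) of the 5 conditions, with the mean and SD of 6 mice as a bar. Mapk3 lies between 97.8 and 124 in VEH-HC and between 79.0 and 99.5 in VEH-T10, and Abl2 and Braf are highest on average in the groups trained for 3 min.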

How the data were processed

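RNA was measured in 30 libraries (6 mice in each of 5 conditions). The authors aligned paired 150-base reads to mm10 with TopHat2 2.1.1 and deposited FPKM per gene symbol from Cufflinks 2.2.1, according to the submitters' processing notes, and the values were used as deposited. The table has 24883 rows and 30 columns, and 0 columns were left out. Read totals are not given in FPKM. Relative depth was estimated from 2642 rows of low values. Groups follow the titles of the samples.

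limma 3.58.1 was fitted to log2(FPKM + 1) of the 13184 rows with a mean of at least 1 FPKM, with all 30 libraries, 1 coefficient per condition and a mean-dependent prior, and p-values were adjusted over all rows (Benjamini-Hochberg). The 95% intervals used the 25 residual degrees of freedom. The Cyber-T-style test took its prior spread from 101 genes of similar level with weight 10 and corrected over 10 pairs of conditions. Correlations used 100000 permutations, two-sided. Coordinates and transcripts are from GENCODE M21 on GRCm38, with R 4.3.3 and Python 3.11.15. The scripts were tested on simulated data. Members, lists and tests were chosen with earlier results of these data known. The genes named are the members, the list genes called in a tested comparison, and for each member the 3 genes with the highest Pearson r. The levels of Ret, Gdnf, Ntrk2, Ntrk3 and Ntf3, and Gfra1 in Y397D-T3, were named outside this rule. The sequencing platform of each library is not given in the sources used here, so batches could not be modelled.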

Additional observations from a re-analysis of the deposited data

Results flagged for a closer look

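Dok1 in Y397F-T10 replicate 1 was at 0.53 FPKM, while the other 5 mice of the group were between 2.51 and 3.22. The gap to the nearest mouse was 0.737 of the group's range, above Dixon's 95% value of 0.625 for 6 samples. It was the only one of 30 groups (6 members in 5 conditions) set apart in this way, and chance flags about 1 in 20 groups. The same library was among the 3 lowest in microglia markers.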

How the results depend on the processing

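Dok6 in VEH-T3 against VEH-HC passed in 10 of 12 fits without 1 library and in 7 of 9 other alternatives, with log2 differences of 0.56 to 0.81. The number of members called there was 1, and 0 when only the libraries compared were fitted and with the length and GC trend removed, a choice made after seeing the data. It was 0 to 1 when 1 library was left out. In Y397F-T10 against VEH-HC the Cyber-T-style test called 1 member in place of 0. In the comparisons that chose the family nothing is read from the number of members past the threshold. In VEH-T10 against VEH-HC it was 1, but 0 without the filter, 0 with only the libraries compared, 2 by the Cyber-T-style test and 0 to 1 leaving out a library. In Y397D-T3 it was 2, and 1 to 2 leaving out a library. The pathway list gave 2 calls in VEH-T10, 1 without the filter and 0 with libraries centred on their median. The causes of these changes were not tested. Calls over all genes moved from 681 to between 0 and 1648 in VEH-T3, from 108 to between 17 and 712 in VEH-T10, from 149 to between 7 and 821 in Y397F-T10 and from 932 to between 485 and 1845 in Y397D-T3, each against VEH-HC. The 0 in VEH-T3 came with only the libraries compared. The highest counts in the first 3 came without the 3 libraries lowest in microglia markers, left out after seeing the data. For Y397F-T10 against VEH-T10 they moved from 0 to as many as 26, for Y397D-T3 against VEH-T3 from 1 to as many as 79, for VEH-T10 against VEH-T3 from 6 to as many as 82 and for Y397F-T10 against VEH-T3 from 0 to as many as 38.

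Replicate numbers name different mice. Same-numbered libraries had a median correlation of 0.0416 over 60 pairs (24 above 0.1), against 0.00649 for different numbers. The same-numbered pairs ranged from -0.496 to 0.84, so some of them shared much of their variation. Of 30 libraries, 8 correlated best with their own number. With a replicate block, Dok6 in VEH-T3 had an adjusted p of 0.0234 (difference 0.72), and the block changed the number of members called in none of the 8 comparisons. The list genes named were also run under every alternative used for the members, a choice made after seeing the data. FPKM gives no read totals, so no detection limit was set for Dok2, which was under 1 FPKM.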
